A study of Danio rerio with 18 samples.

Results

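The endothelial translatome of the zebrafish embryo was read as RNA bound to tagged ribosomes of AngioTag embryos (AngioTag IP), set against the RNA of whole AngioTag embryos (AngioTag input). The comparison was chosen by its sample labels alone: it takes the 3 AngioTag IP and the 3 AngioTag input libraries, 6 of the 18 libraries of the series, and ties samples that carry the same number in a block. Both groups came from pooled, transgene-positive embryos at 24 hours post fertilization (hpf), and the labels name no treatment for either. In the AngioTag line a ribosomal protein with an HA tag is made in the endothelium, and an HA antibody pulls the tagged ribosomes with their RNA out of a lysate. That the tagged protein is rpl10a and that a kdrl promoter drives it comes from knowledge of the study and not from the labels, and any other cell in which that promoter is active would be tagged too. A further 6 libraries, RiboTag IP and RiboTag input, are the same preparations from transgene-positive RiboTag embryos of 24 hpf, in which ribosomes of the whole embryo are tagged. The last 6, FACS sorted and FACS total, are RNA of GFP-positive endothelial cells sorted from AngioTag embryos and total RNA of AngioTag embryos.

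Endothelial cells line the blood vessels. At this age the first artery and vein carry blood, sprouts between the somites are growing, and part of the arterial endothelium goes on to form blood stem cells. Cell fate in this lineage is known to rest on transcription factors of the ETS, SoxF, GATA and forkhead families, while surface receptors, matrix proteins and transporters set how a vessel grows, seals and exchanges solutes with the tissue around it.

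A total of 17913 genes had enough counts to be tested, and a gene was called where the adjusted p of edgeR's quasi-likelihood test with the sample number as a block was under 0.05. At that threshold 2352 genes were higher in the AngioTag IP (13.1% of the genes tested) and 2552 were lower (14.2%), and every count below is to be read against these shares. Over all genes tested, called or not, every IP library was above every input library for 3715 and below every input library for 4379. Statements below that groups did not overlap are to be read against these numbers. Fold changes are log2 values of IP over input with a standard error (SE), levels are TMM-normalised CPM, that is counts scaled to a common library total, in samples 1, 2 and 3, and levels of different genes are not compared because they are not divided by gene length. The endothelial markers named for this comparison passed in full. The VEGF receptor gene kdrl was at 387, 370 and 659 CPM in the IP, against 22.1, 25.7 and 28.2 CPM in the input, a log2 fold change of 4.18 ± 0.22 (adjusted p = 5.75e-06). The surface protein gene clec14a rose by 5.73 ± 0.27 and cdh5, which encodes the junctional cadherin of endothelium, by 4.67 ± 0.24. RPL10A was at 5566, 6158 and 7741 CPM in the IP, against 2577, 3396 and 2745 CPM in the input (1.15 ± 0.17, adjusted p = 0.00139), with every IP library above every input library. Of a list of 48 standard endothelial genes, 45 rose and none fell. Its members were left out of the largest rises below but not out of the lists by family, whose counts can include them.

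The libraries held 20.7, 42.1 and 39.8 M counts in the IP, against 33.6, 43.4 and 40.7 M counts in the input. IP 1 stood apart from the other libraries: 1274 of the tested genes had no count in it, against 30 and 71 in IP 2 and IP 3 and 3 to 45 in the inputs, and a single gene, zgc:158463, took 4.19% of its counts. Mitochondrially encoded genes held 0.247% to 0.288% of counts in the IP, against 3.74% to 4.47% in the input. Without sample pair 3 the calls fell to 955 higher and 811 lower, and without pair 1, which holds IP 1, they were 2641 and 3461. With upper-quartile scaling in place of TMM the calls were 1621 higher and 3737 lower, and the median of all genes was -0.27, compared with -0.07 with TMM. Fold changes also moved with level. Among the 4479 tested genes with the lowest average level the median log2 fold change was -0.70, with 146 genes higher and 497 lower, while among the 4478 with the highest level it was 0.21, with 979 higher and 438 lower. In the RiboTag pull-down the medians of the same gene sets were -0.64 and 0.23. The part of level in the falls of low-level genes was not tested, and RiboTag values are given beside several of them.

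The other libraries of the series gave readings that share no library with this comparison. The FACS libraries do come from the same AngioTag line, so both readings may share any cell outside the endothelium that the line marks. In FACS sorted cells against FACS total, 13.0% of 19326 genes were higher and 13.5% lower. Of the 2352 genes higher in the AngioTag IP, 1247 were also higher in sorted cells, which is 53.0% of the first list and 49.6% of the second, and 19 were lower. Of the 2552 lower genes 1047 were also lower in sorted cells, 41.0% and 40.1% of the lists. In the RiboTag IP against its input, 7.2% of 18134 genes were higher and 6.99% lower. There 277 of the AngioTag risers also rose (11.8% of the AngioTag list and 21.2% of the RiboTag list) and 564 of the fallers also fell (22.1% and 44.5%).

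The 20 largest rises outside the standard endothelial list, all from genes whose average log2 CPM was 2 or more, ran from 4.52 ± 0.25 to 7.13 ± 0.28, and every IP library was above every input library because the choice asked for it. They held channels of the cell membrane, ETS and zinc finger regulators, secreted proteins and genes known from leukocytes. The water channel gene AQP1 (ENSDARG00000023713) was at 1985, 1255 and 2832 CPM in the IP, against 47.1, 48.7 and 54.6 CPM in the input, a rise of 5.26 ± 0.25 (adjusted p = 5.75e-06). A second water channel gene, AQP8, was at 503, 294 and 878 CPM in the IP, against 14.1, 13.4 and 14.3 CPM in the input (5.18 ± 0.31). For both genes the lowest IP library stood more than an order of magnitude above the highest input. The transglutaminase gene f13a1b, which encodes the A chain of coagulation factor XIII, was at 1111, 652 and 1133 CPM in the IP, against 29.5, 30.9 and 26.4 CPM in the input (5.02 ± 0.26, adjusted p = 5.75e-06). ESM1, whose product endocan is a proteoglycan secreted by endothelium, was at 144, 113 and 211 CPM, against 4.15, 4.56 and 2.95 CPM in the input (5.29 ± 0.32). The 2 groups were wholly apart for both genes, and IP 2 was the lowest IP library.

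Regulators and signalling genes among these rises were spi2, a Spi-type ETS factor (6.42 ± 0.34), gfi1aa, a zinc finger repressor of blood formation (4.96 ± 0.24), tmem88a, which encodes a membrane protein that acts on Wnt signalling (4.67 ± 0.22), and the gene named notchl (5.07 ± 0.25). Junction and adhesion genes were GJA5 (ENSDARG00000040065), a connexin of arterial endothelium (5.29 ± 0.27), CCM2L, a relative of the cavernous malformation gene CCM2 (4.89 ± 0.30), and MICALL2, whose product works in junction traffic with small GTPases (4.64 ± 0.26). The thrombin receptor family gene F2RL2 (ENSDARG00000090524) rose by 5.85 ± 0.38, the disulfide isomerase gene pdia2 by 4.74 ± 0.32, the lectin gene hbl2 by 4.92 ± 0.32 and sc:d189 by 4.52 ± 0.25. In FACS sorted cells 17 of the 18 of these genes that could be tested were called higher as well. In the RiboTag pull-down 4 of 19 were, namely hip1ra, AQP1, f13a1b and tmem88a.

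The exceptions to the pattern in sorted cells were 3 genes. The clathrin adaptor gene hip1ra was at 2000, 211 and 284 CPM in the IP, against 11.3, 9.15 and 10.6 CPM in the input (5.52 ± 0.57, adjusted p = 0.000228), so that IP 1, the shallow library, stood far above IP 2 and IP 3. Without pair 1 its log2 fold change was 4.63 and the call held. It also rose in the RiboTag pull-down, by 2.35 ± 0.61, and in sorted cells its value was -1.18 ± 0.41 with no call. The actin gene actc1c was at 67.7, 113 and 130 CPM in the IP, against 0.39, 1.18 and 0.686 CPM in the input (7.13 ± 0.28, adjusted p = 5.75e-06), and the chemokine gene ccl19b was at 5.96, 4.7 and 12.8 CPM, against 0.279, 0.255 and 0.114 CPM in the input (5.04 ± 0.49). Neither had enough counts to be tested in the sorted libraries.

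**Figure D1:**
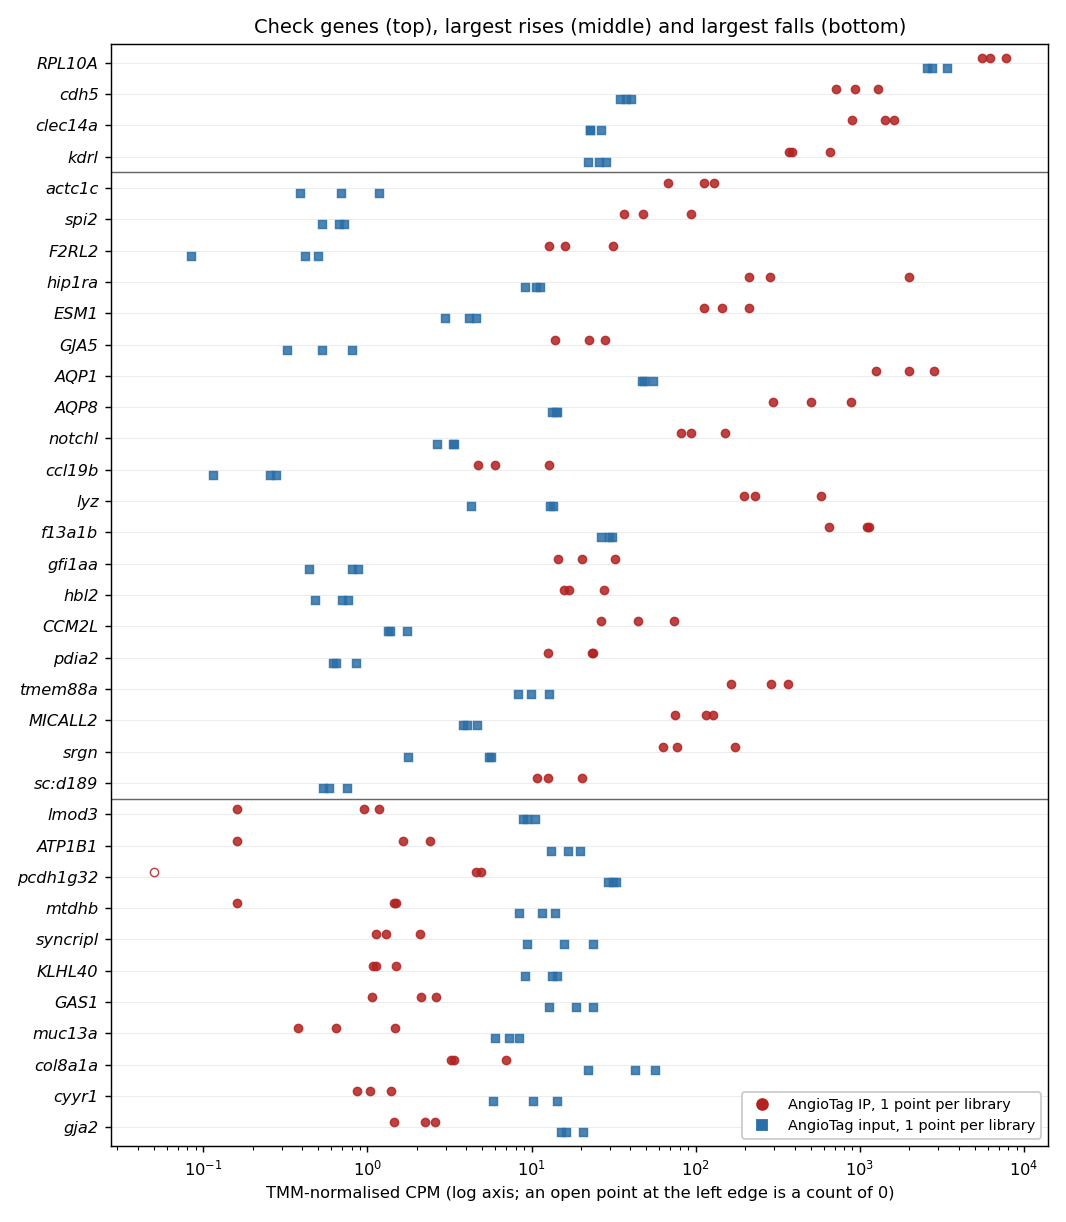
TMM-normalised CPM on a log axis in each AngioTag IP library (red circles) and each AngioTag input library (blue squares) for the 4 check genes, the 20 largest rises and 11 of the largest falls. The IP points lie to the right of the input points for every rise, the IP 1 point of hip1ra lies far to the right of its other IP points, and IP 1 gives the lowest point of several falls, with a count of 0 for pcdh1g32.

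The largest falls above the same minimum level, outside the mitochondrially encoded genes, are given for 11 genes, ran from -3.64 ± 0.44 to -3.04 ± 0.25 and held genes known from muscle, notochord and epithelium. The thin-filament gene lmod3 was at 0.161, 1.17 and 0.95 CPM in the IP, against 10.5, 8.92 and 9.38 CPM in the input (adjusted p = 0.000553), and in the RiboTag pull-down it was at -0.82 ± 0.22. The notochord-rich collagen gene col8a1a was at 6.98, 3.36 and 3.21 CPM in the IP, against 56.4, 22 and 42.4 CPM in the input (-3.15 ± 0.24, adjusted p = 3.46e-05). The choice of these genes asked for groups without overlap, and IP 1 was the lowest library for lmod3. The others were the muscle gene KLHL40 (ENSDARG00000019125, -3.30 ± 0.25), the mucin gene muc13a (-3.17 ± 0.43), the connexin gene gja2 (-3.04 ± 0.25), the Hedgehog co-receptor gene GAS1 (ENSDARG00000077298, -3.18 ± 0.36), the sodium pump subunit gene ATP1B1 (ENSDARG00000076833, -3.62 ± 0.51), pcdh1g32, mtdhb, syncripl and cyyr1. The falling ATP1B1 gene had a mean of 16.5 CPM in the input. Another gene named ATP1B1 (ENSDARG00000013144), outside this set, rose (0.61 ± 0.17), with a mean of 267 CPM in the IP, against 175 CPM in the input. The protocadherin gene pcdh1g32 had no count in IP 1 and lost its call in DESeq2 and in 4 of the fits that left out a library without a block. In the RiboTag pull-down 9 of the 11 were lower as well, all but pcdh1g32 and col8a1a, and in sorted cells 7 of 11 were, all but mtdhb, syncripl, GAS1 and cyyr1.

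Many transcripts of other tissues were lower in the IP but remained in it. The summed level of 38 skeletal muscle genes was 26668, 26930 and 28150 CPM in the IP, against 27167, 35744 and 37116 CPM in the input, and that of the 26 epidermis and periderm genes was 29853, 29457 and 23943 CPM, against 29281, 35088 and 32181 CPM in the input. The groups overlapped in both sums, since input 1 lay below IP 3 in muscle and below IP 1 and IP 2 in epidermis. The sums of the standard endothelial genes were 6694 to 11910 CPM in the IP, against 607 to 619 CPM in the input. By gene, 25 muscle, 13 epidermal, 16 of 35 nervous system and 9 of 16 notochord and cartilage genes fell, while 4 muscle, 3 epidermal and 1 nervous system genes rose. All 4 muscle risers were lower in sorted cells. Of 33 markers that define these tissues 24 could be matched by name, and none of the matched ones was at 0 in any library. Of the 21 outside endothelium, 13 fell and 1 rose. The muscle creatine kinase gene ckma was at 662, 629 and 701 CPM in the IP, against 1264, 1644 and 1849 CPM in the input, and the notochord collagen gene col9a2 was at 123, 138 and 108 CPM, against 244, 282 and 285 CPM in the input. Why transcripts of these tissues remained in the IP was not tested.

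Leukocyte genes were higher in the IP. Of 33 macrophage and neutrophil genes 23 rose and none fell, with a summed level of 566, 606 and 1366 CPM in the IP, against 78.4, 122 and 123 CPM in the input, and 20 of the 23 also rose in sorted cells. Lysozyme, lyz, was at 196, 229 and 578 CPM in the IP, against 4.26, 13.5 and 12.9 CPM in the input (5.03 ± 0.33, adjusted p = 1.5e-05), and the granule proteoglycan gene srgn rose by 4.62 ± 0.30. Both were highest in IP 3 and lowest in input 1. In the RiboTag pull-down the median of the leukocyte list was -0.71. Of 23 erythrocyte genes 7 rose and 3 fell. Their summed level was 8682, 3045 and 6222 CPM in the IP, against 3210, 2071 and 2207 CPM in the input, and IP 2 lay below input 1. The haem synthesis gene alas2 was at 45.6, 35.4 and 38.4 CPM in the IP, against 46.2, 29.4 and 34.2 CPM in the input, with no call. With a pair left out the leukocyte list had 13 to 25 risers, the erythrocyte list 2 to 8, and the fewest of each came without pair 3. Several regulators, receptors and secreted proteins named below are also known from leukocytes, and the part of leukocytes in those results was not tested.

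Transcription factors were split by family. Over all 14 families 83 of 569 tested genes rose and 164 fell, with a median of -0.45, against -0.07 over all genes. The ETS family, whose members drive endothelial and myeloid fate, had 12 risers of 24 and no faller, with a median of 0.76. The endothelial master regulator etsrp was at 507, 390 and 889 CPM in the IP, against 20.3, 23.6 and 21.2 CPM in the input (4.69 ± 0.29, adjusted p = 1.06e-05), and every IP library stood far above every input library. ERG rose by 4.62 ± 0.32 and FLI1 by 3.2 ± 0.21, both ETS factors of endothelium, while SPI1, the ETS factor of myeloid cells, rose by 3.38 ± 0.26. GATA factors and their partners had 8 risers and 1 faller among 17. They were led by the LIM adaptor gene LDB2 (ENSDARG00000019579, 3.51 ± 0.25), gata2b, a factor of haemogenic endothelium (3.12 ± 0.37), the blood and vessel regulator LMO2 (2.54 ± 0.20) and GATA5 (1.47 ± 0.18). In sorted cells 9 of the 12 ETS risers and all 8 of the GATA list rose too.

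In the Sox family the SoxF genes stood apart from the rest: 5 of 23 genes rose and 13 fell. SOX7 was at 134, 151 and 257 CPM in the IP, against 10.2, 11 and 9.47 CPM in the input (4.09 ± 0.26, adjusted p = 1.32e-05). SOX17, an arterial SoxF gene, was low in level, at 5.8, 2.86 and 5.6 CPM in the IP, against 0.306, 0.0926 and 0.114 CPM in the input (4.85 ± 0.43, adjusted p = 8.92e-05), and sox18 rose by 2.62 ± 0.22. None of the 3 SoxF genes overlapped between groups. The SOX4 copies went opposite ways, with 0.92 ± 0.17 for ENSDARG00000004588 and -1.43 ± 0.30 for ENSDARG00000098834, and both lost their call without pair 3 (adjusted p = 0.0933 and 0.0693). The neural crest factor SOX10 (-1.31 ± 0.28) and the neural factor SOX21 (-1.57 ± 0.27) fell.

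Krüppel-like factors were mixed, with 7 risers and 7 fallers among 28 KLF and SP genes. The flow-responsive factor klf2a was at 14.8, 23.6 and 39.6 CPM in the IP, against 6.13, 4.91 and 5.1 CPM in the input (2.18 ± 0.30, adjusted p = 0.00115). KLF12 (ENSDARG00000015312) rose by 2.29 ± 0.21, KLF3 by 1.67 ± 0.18, KLF7 (ENSDARG00000043821) by 1.58 ± 0.18 and KLF6 by 1.26 ± 0.19. The fallers included SP9 (-1.59 ± 0.24) and SP8 (ENSDARG00000056666, -1.61 ± 0.21), which are known from limb bud and forebrain in mouse. Forkhead genes gave 9 risers and 13 fallers of 49. FOXO1 (ENSDARG00000099555), a growth and metabolic regulator of endothelium, was at 18.5, 22.8 and 29.7 CPM in the IP, against 4.26, 5.03 and 4.71 CPM in the input (2.32 ± 0.20, adjusted p = 8.48e-05). FOXC1 (1.95 ± 0.20), foxf2a (2.05 ± 0.23) and FOXL2 (ENSDARG00000068417, 2.06 ± 0.34) rose with it, and the neural crest factor FOXD3 (-1.86 ± 0.25) and the ionocyte factor foxi3a (-1.61 ± 0.24) fell.

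Among 44 AP-1, MAF, ATF and CEBP genes 9 rose and 4 fell. The AP-1 subunit gene JUND was at 80.4, 31.1 and 35.3 CPM in the IP, against 7.36, 11 and 8.95 CPM in the input (2.29 ± 0.34, adjusted p = 0.00155). Nuclear receptors had 5 risers and 6 fallers of 47. The oestrogen receptor gene ESR1 was at 6.28, 3.41 and 6.27 CPM in the IP, against 0.0557, 0.324 and 0.114 CPM in the input (4.96 ± 0.59, adjusted p = 0.000492), at very low levels in the whole embryo. The lipid sensor PPARD (ENSDARG00000044525) rose by 1.61 ± 0.23, NR5A2 by 1.58 ± 0.20 and RXRA (ENSDARG00000057737) by 1.18 ± 0.17, and RARG (ENSDARG00000034117) fell (-1.29 ± 0.21). MEF2C (ENSDARG00000009418), a factor of muscle and vessel, rose by 1.75 ± 0.19, and SMAD1, which carries BMP signals, by 1.11 ± 0.18. Of 25 IRF, STAT and NF-kB genes, which carry cytokine and interferon signals, 3 rose and 2 fell.

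Blood regulators on a list of 17 rose in 6 cases and fell in 1. The progenitor factor hhex was at 65.9, 39.1 and 73.5 CPM in the IP, against 2.2, 1.76 and 1.72 CPM in the input (4.93 ± 0.24, adjusted p = 5.75e-06), with no overlap. The lymphoid factor IKZF1 rose by 1.94 ± 0.27, the core binding factor subunit CBFB by 1.16 ± 0.18 and the repressor PRDM1 by 1.09 ± 0.17. Among 68 basic helix-loop-helix genes only 4 rose while 32 fell. The risers included the Notch target HEY2 of arteries (2.90 ± 0.26) and the blood and vessel factor TAL1 (1.60 ± 0.18). The fallers included HES6 (ENSDARG00000007097, -2.04 ± 0.22) and her4.2 (-2.14 ± 0.30), a gene of the neural Notch response. The gene her4.2 fell in the RiboTag pull-down as well (-1.52 ± 0.18).

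Patterning factors fell more often than they rose. Of 135 patterning homeobox genes 62 fell and 8 rose (median -0.75), of 47 Hox genes 15 fell and 1 rose (median -0.38), and of 17 T-box genes 6 fell and 1 rose (median -0.77). In the RiboTag pull-down the medians of these families were 0.12, -0.33 and -0.03, so the Hox genes had about the same median in both pull-downs and the other families did not. Examples that fell were IRX3 (ENSDARG00000031138, -2.84 ± 0.35), PAX3 (ENSDARG00000010192, -2.15 ± 0.35) and HOXC13 (-1.95 ± 0.25). The exceptions included both genes named PAX1, a factor of somite and pharyngeal endoderm. One of them (ENSDARG00000073814) was at 17.6, 14.9 and 25.6 CPM in the IP, against 1.31, 2.64 and 2.47 CPM in the input (3.18 ± 0.27, adjusted p = 7.23e-05), and the other (ENSDARG00000008203) rose by 1.96 ± 0.31. LHX6 (ENSDARG00000006896) rose by 2.14 ± 0.27, and TBX1, a factor of the pharyngeal arches and their vessels, by 1.17 ± 0.19.

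Leaving out a sample pair changed these counts, and in nearly every family the fewest calls came without pair 3. Across the 3 pairs left out, risers numbered 7 to 12 in the ETS list, 7 to 8 in the GATA list, 3 to 5 in the Sox list, 5 to 6 in the KLF and SP list and 5 to 10 in the forkhead list. Fallers numbered 5 to 16 in the Sox list, 3 to 14 in the forkhead list, 11 to 34 in the basic helix-loop-helix list, 21 to 73 in the patterning list and 7 to 17 in the Hox list. Risers of the AP-1 and blood regulator lists numbered 5 to 12 and 5 to 7, and fallers of the nuclear receptors 2 to 10. Risers of the IRF, STAT and NF-kB list numbered 0 to 6. Without the sample number as a block the basic helix-loop-helix list had 19 fallers, and with upper-quartile scaling the Hox list had 23, the nuclear receptors 11 and the patterning list 5 risers.

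**Figure D2:**
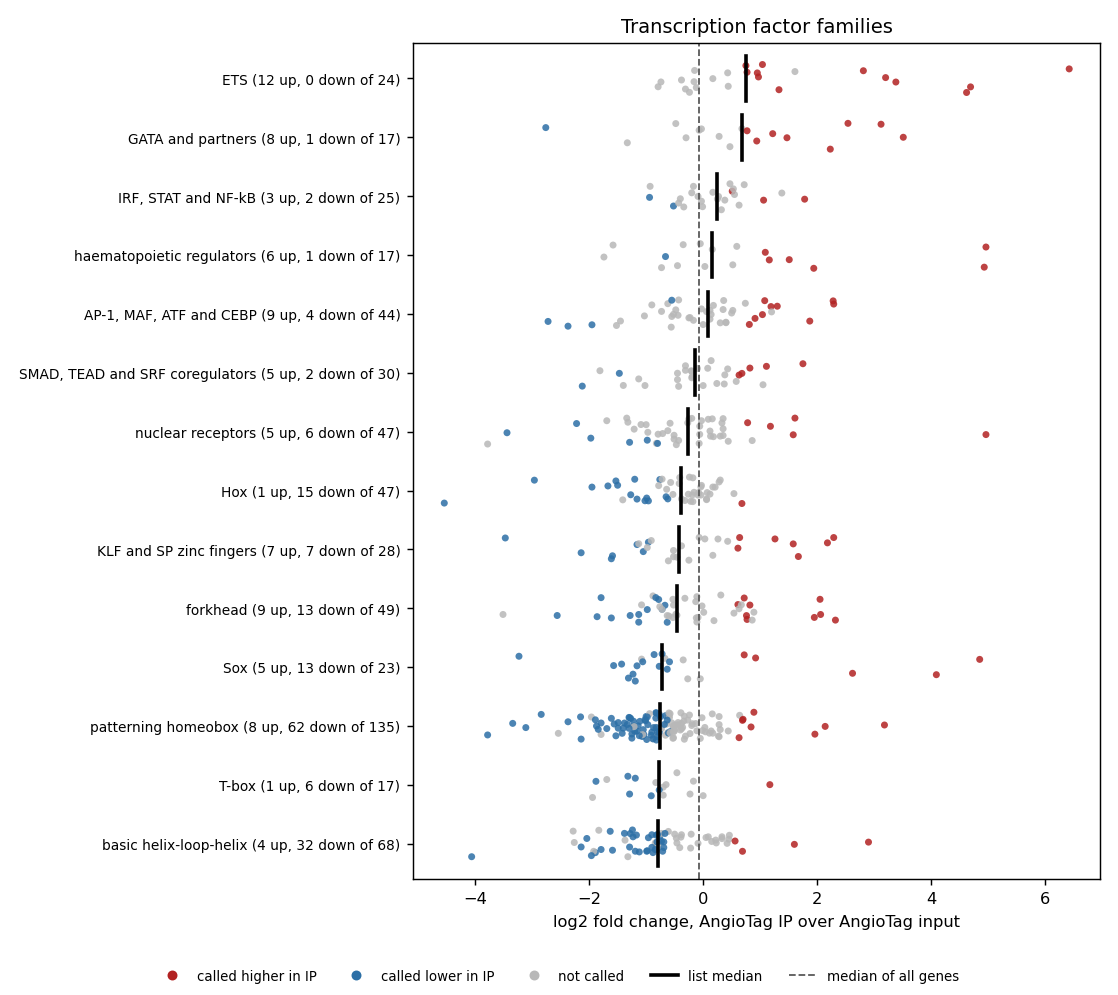
Log2 fold change of AngioTag IP over AngioTag input for every tested member of 14 transcription factor families, 1 point per gene, with called genes in colour, the family median as a black bar and the median of all genes as a dashed line. The medians of the ETS and GATA families lie to the right of the dashed line, while those of the patterning homeobox, T-box and basic helix-loop-helix families lie to its left, and the Sox family splits into a few SoxF genes far to the right and a majority to the left.

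Among receptors and channels 75 of 397 tested genes rose and 49 fell (median -0.19). Peptide and amine receptors of the G protein-coupled (GPCR) class gave 14 risers and 4 fallers of 50. The apelin receptor gene aplnrb was at 322, 195 and 378 CPM in the IP, against 16.9, 16.3 and 14.9 CPM in the input (4.17 ± 0.25, adjusted p = 1.06e-05). The receptor activity-modifying protein gene ramp2, a partner of the adrenomedullin receptor, was at 215, 146 and 268 CPM in the IP, against 17.4, 19.5 and 17.7 CPM in the input (3.49 ± 0.24, adjusted p = 2.15e-05). Neither gene overlapped between groups, and IP 3 was the highest library for both. AGTR2, a receptor for angiotensin, rose by 3.96 ± 0.24 and AVPR1A (ENSDARG00000045788), a receptor for vasopressin peptides, by 3.48 ± 0.24. The endothelin receptor gene ednrab, known from neural crest, fell (-1.59 ± 0.21). In sorted cells 13 of the 14 risers were higher as well.

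Adhesion GPCRs rose in 7 of 23 cases and fell in 2. ADGRL4, the endothelial member of the latrophilin group, was at 26.7, 29 and 58.5 CPM in the IP, against 1.89, 1.81 and 2.08 CPM in the input (4.22 ± 0.25, adjusted p = 1.03e-05). ADGRG6, known from myelinating glia and inner ear, rose by 3.43 ± 0.29, ADGRL3 (ENSDARG00000061121) by 2.33 ± 0.19 and ADGRA2, a Wnt7 co-receptor of brain vessels, by 2.08 ± 0.20. Lipid and nucleotide receptors gave 8 risers and 4 fallers of 31. The lysophosphatidic acid receptor gene lpar2a was at 57.9, 34.5 and 64.2 CPM in the IP, against 8.97, 7.39 and 7.48 CPM in the input (2.67 ± 0.22, adjusted p = 4.91e-05). The cysteinyl leukotriene receptor CYSLTR1 (3.43 ± 0.36), LPAR6 (ENSDARG00000062552, 1.34 ± 0.19) and the adenosine receptor ADORA2A (1.28 ± 0.21) rose too, while the ATP-gated channel genes P2RX3 (ENSDARG00000010477, -2.23 ± 0.32) and p2rx5 (-1.29 ± 0.22) fell. The orphan receptor GPR182, known from veins and lymphatics, was at 233, 141 and 296 CPM in the IP, against 9.03, 7.97 and 8.49 CPM in the input (4.66 ± 0.25).

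Receptors for chemokines, cytokines and growth factors of the TGF-beta class rose more often than they fell. Both genes named CXCR4, the receptor for the chemokine CXCL12, were higher: ENSDARG00000057633 was at 100, 75.5 and 152 CPM in the IP, against 15, 15.1 and 17.7 CPM in the input (2.72 ± 0.21, adjusted p = 3.87e-05), and ENSDARG00000041959 rose by 1.1 ± 0.18. Of 19 TGF-beta and BMP receptor genes 4 rose and 1 fell. A TGFBR2 gene (ENSDARG00000059363) was at 17.4, 14.4 and 27.6 CPM in the IP, against 0.585, 1.39 and 1.28 CPM in the input (4.18 ± 0.31, adjusted p = 3.25e-05), and its partner copy (ENSDARG00000034541) rose by 1.87 ± 0.20. The endothelial BMP receptor acvrl1 rose by 2.06 ± 0.21 and BMPR1A (ENSDARG00000019728) by 1.14 ± 0.17. Cytokine and interferon receptors gave 10 risers and 1 faller of 34, led by the interleukin receptor genes il13ra2 (3.76 ± 0.26), il6r (3.18 ± 0.25) and il13ra1 (1.97 ± 0.21). Of 14 Toll-like and TNF family receptors 4 rose, with tlr5b, a flagellin sensor, at 1.70 ± 0.25 and tnfrsf1a, a receptor for tumour necrosis factor, at 1.23 ± 0.22.

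Receptors of tissue patterning fell more often than they rose, and integrins, which bind matrix, went both ways. Wnt and Hedgehog receptors had 9 fallers and 1 riser of 24. The Hedgehog receptor gene PTCH1 was at 0.215, 0.525 and 0.462 CPM in the IP, against 6.83, 2.78 and 5.72 CPM in the input (-3.48 ± 0.47, adjusted p = 0.00095), and it was lower in the RiboTag pull-down too (-1.25 ± 0.26). The Frizzled gene FZD5 fell as well (-2.48 ± 0.34). Receptor tyrosine kinases outside the VEGF, Tie and Eph groups had 7 fallers and 3 risers of 34, with the planar polarity gene PTK7 at -2.06 ± 0.24. The median of this kinase list was -0.29 here and -0.31 in the RiboTag pull-down, and that of the Wnt and Hedgehog list was -0.54 and -0.2. In sorted cells 2 of the 7 kinase fallers and 3 of the 9 Wnt and Hedgehog fallers were lower. Integrins gave 5 risers and 6 fallers of 27. The collagen receptor subunit ITGA1 rose by 3.03 ± 0.23, the fibronectin receptor subunit ITGA5 by 1.35 ± 0.19 and the leukocyte subunit itgb2 by 3.93 ± 0.52. A low-level ITGB1 gene (ENSDARG00000071863) was at 0.59, 0.262 and 0.591 CPM in the IP, against 4.71, 2.22 and 4.78 CPM in the input (-3.02 ± 0.35), and fell in the RiboTag pull-down too (-2.02 ± 0.36).

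Channels followed no single direction. Of 79 potassium, TRP and mechanosensitive channel genes 6 rose and 8 fell, with the potassium channel gene KCNG4 at 2.84 ± 0.28 and the calcium-activated potassium channel gene kcnn1a at 2.03 ± 0.21 among the risers. The gene kcnn1a was at 33, 23.6 and 31.6 CPM in the IP, against 6.24, 7.92 and 7.21 CPM in the input, and its value in sorted cells was -0.45 ± 0.29 with no call. Gap junction genes gave 4 risers and 2 fallers of 16. GJA1, a widely expressed connexin gene, was at 219, 157 and 209 CPM in the IP, against 52.5, 51.2 and 46.5 CPM in the input (1.95 ± 0.19, adjusted p = 0.000163). The arterial connexin gene gja4 rose by 4.25 ± 0.32 and gja9b by 2.06 ± 0.35.

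Across the 3 sample pairs left out, risers numbered 11 to 19 among the peptide and amine GPCRs, 5 to 7 among the adhesion GPCRs, 6 to 10 among the lipid and nucleotide receptors, 3 to 12 among the cytokine receptors, 4 among the TGF-beta and BMP receptors and 4 among the gap junction genes. Fallers numbered 4 to 12 among the Wnt and Hedgehog receptors, 5 to 9 among the receptor tyrosine kinases and 0 to 17 among the channels. Risers among the receptor tyrosine kinases numbered 0 to 4. Each minimum of a list of risers that moved came without pair 3. Upper-quartile scaling gave 6 risers among the cytokine receptors and 18 fallers among the channels, and raised the fallers of the whole theme to 78.

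**Figure D3:**
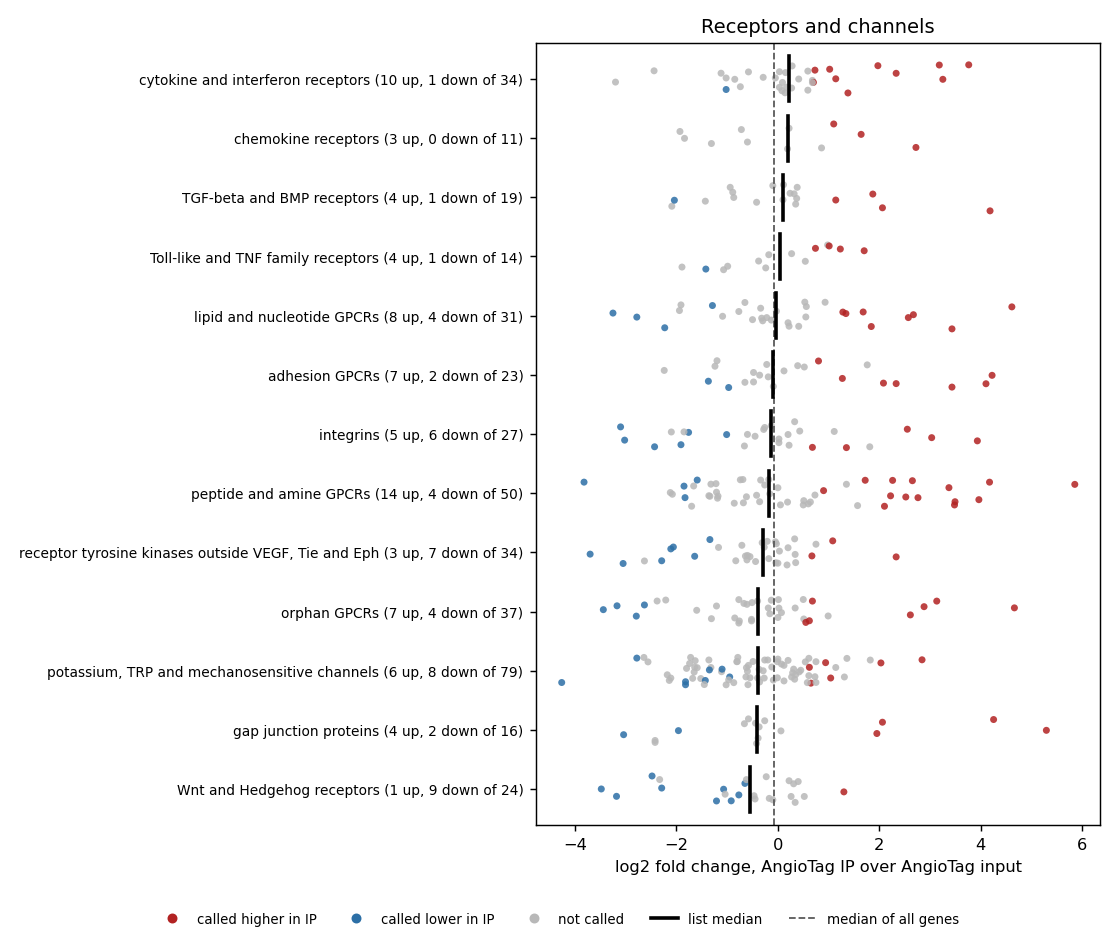
Log2 fold change of AngioTag IP over AngioTag input for every tested member of 13 lists of receptors and channels, 1 point per gene, drawn as in the plot of transcription factor families. List medians stay within 1 log2 unit of the dashed line, and the risers form long tails to the right in the peptide, adhesion, cytokine and gap junction lists.

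Secreted and matrix genes gave 86 risers and 125 fallers of 479 (median -0.39). EGFL7, a matrix-bound factor of endothelium, was at 95.3, 80.6 and 134 CPM in the IP, against 11.8, 11.4 and 11.1 CPM in the input (3.15 ± 0.22, adjusted p = 2.07e-05). The gene pdgfba, which encodes the PDGF-B ligand that recruits mural cells, was at 13.1, 24.6 and 33.1 CPM in the IP, against 4.68, 6.62 and 5.68 CPM in the input (1.99 ± 0.24, adjusted p = 0.000504), and the EGF receptor ligand gene hbegfa rose by 1.97 ± 0.26. For pdgfba IP 3 was the highest and IP 1 the lowest IP library, and neither gene overlapped between groups. In the same list of 23 PDGF, angiopoietin and related genes 4 rose and 7 fell, with angptl2a, at 0.322, 0.406 and 0.308 CPM in the IP, against 6.02, 4.28 and 6.22 CPM in the input (-3.94 ± 0.36, and -1.14 ± 0.31 in the RiboTag pull-down). Vasoactive peptides gave 4 risers and 2 fallers of 17. The endothelin gene edn1 was at 5.37, 17 and 27.4 CPM in the IP, against 2.54, 3.45 and 2.93 CPM in the input (2.25 ± 0.36, adjusted p = 0.00237), and edn2 rose by 2.2 ± 0.34.

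Ligands of the TGF-beta class and of the insulin-like growth factor (IGF) system held further risers. The ligand genes tgfb1b (3.80 ± 0.43), bmp16 (2.42 ± 0.21) and tgfb1a (1.75 ± 0.24) rose, in a list with 6 risers and 11 fallers of 33. The ligand tgfb1a was at 44.2, 21 and 19.8 CPM in the IP, against 8.19, 7.2 and 8.19 CPM in the input. IGF binding protein genes were among the risers, and IGFBP1 was at 94.5, 63.6 and 98 CPM in the IP, against 5.66, 7.06 and 6.54 CPM in the input (3.71 ± 0.23, adjusted p = 1.22e-05). IGFBP7, a vessel matrix member of the family, rose by 3.22 ± 0.21 in the AngioTag pull-down and by 1.1 ± 0.22 in the RiboTag pull-down, and IGFBP3 rose by 1.15 ± 0.19. Among 14 chemokines 6 rose and 1 fell, with cxcl20 at 3.18 ± 0.34. Guidance genes of the semaphorin, netrin and slit groups fell more often than they rose (9 and 3 of 23). Those that rose included SLIT3, a ligand of Robo receptors, at 143, 148 and 172 CPM in the IP, against 60.5, 66.8 and 65.1 CPM in the input (1.26 ± 0.17, adjusted p = 0.00103), and SEMA3F (ENSDARG00000055373, 1.32 ± 0.18), while SEMA3D fell (-1.87 ± 0.28).

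Of 30 Wnts and secreted antagonists 12 fell and 1 rose. Of 27 FGF genes 4 fell and none rose, a share close to that of fallers over all genes, and without pair 3 none fell. The riser of the Wnt list was DKK3 (ENSDARG00000070683), at 15.8, 11.8 and 15 CPM in the IP, against 2.73, 3.87 and 2.33 CPM in the input (2.26 ± 0.26, adjusted p = 0.000423). The other gene named DKK3 (ENSDARG00000103591) fell (-1.38 ± 0.40), with a mean of 1.09 CPM in the IP, against 2.63 CPM in the input. The Wnt antagonist SFRP2 was at 1.07, 0.525 and 0.539 CPM in the IP, against 8.36, 3.98 and 7.32 CPM in the input (-3.21 ± 0.32, adjusted p = 0.000176), and it was lower in the RiboTag pull-down too (-0.82 ± 0.24).

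Most called collagens were lower, and a few of the vessel wall were higher. Collagens fell in 22 of 49 cases and rose in 4, with a median of -0.66 in this pull-down and 0.51 in the RiboTag pull-down. COL4A1, the network collagen of basement membranes, was at 171, 150 and 275 CPM in the IP, against 17, 23.4 and 22.4 CPM in the input (3.21 ± 0.23, adjusted p = 2.61e-05). COL8A2, a short-chain collagen of vessels and cornea, rose by 4.05 ± 0.32 and col18a1b, whose product carries endostatin, by 3.02 ± 0.34. The cartilage and notochord collagen gene col9a3 was at 63.3, 111 and 92.1 CPM in the IP, against 169, 222 and 237 CPM in the input (-1.26 ± 0.18, adjusted p = 0.00131), and col7a1l (ENSDARG00000069692) fell (-1.93 ± 0.28). In sorted cells all 4 risers were higher and 17 of 22 fallers lower.

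Laminins, nidogens and perlecan were split by member, with 5 risers and 5 fallers of 15. The endothelial laminin chain lama4 was at 187, 202 and 332 CPM in the IP, against 29.2, 37.6 and 36.7 CPM in the input (2.76 ± 0.21, adjusted p = 3.47e-05), and the chain gene LAMB1 (ENSDARG00000045524) rose by 2.67 ± 0.24. NID1 (ENSDARG00000103129), a linker of laminin and collagen networks, rose by 2.25 ± 0.25, whereas LAMB2, a chain of muscle and neuromuscular basement membranes, fell (-1.63 ± 0.21). The other gene named NID1 (ENSDARG00000068710) fell as well (-1.36 ± 0.18). Matricellular and elastic fibre genes gave 15 risers and 15 fallers of 62. The proteoglycan gene SPOCK3 was at 214, 141 and 253 CPM in the IP, against 13.6, 15.6 and 17.4 CPM in the input (3.67 ± 0.23, adjusted p = 1.12e-05). The elastin microfibril interface gene EMILIN2 (3.53 ± 0.28), the CCN family gene ccn1l2 (3.44 ± 0.24) and the microfibril-associated gene mfap4.8 (3.43 ± 0.27) rose with it, and lumican, LUM (-1.94 ± 0.19), SMOC2 (-1.45 ± 0.23) and fibulin-type EFEMP2 (ENSDARG00000094324, -1.31 ± 0.20) fell.

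Metalloproteinases and their inhibitors rose in 16 of 49 cases and fell in 5. The membrane-bound collagenase gene MMP14 (ENSDARG00000008388) was at 148, 121 and 186 CPM in the IP, against 32, 26.6 and 28 CPM in the input (2.37 ± 0.20, adjusted p = 5.69e-05). The collagenase gene mmp13a (3.75 ± 0.41), which zebrafish leukocytes also express, mmp25b (2.55 ± 0.29), adam8a (1.70 ± 0.19) and the inhibitor gene TIMP2 (ENSDARG00000075261, 1.66 ± 0.20) rose, and adam10b (-1.86 ± 0.23) and mmp30 (-1.30 ± 0.22) fell. Collagen processing and crosslinking enzymes gave 6 risers and 11 fallers of 36, among them the collagen galactosyltransferase gene COLGALT1 (ENSDARG00000058270, -2.38 ± 0.23) and the prolyl hydroxylase subunit gene p4ha1a (-1.93 ± 0.24).

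Blood plasma proteins differed from each other. Coagulation genes gave 7 risers and 5 fallers of 29. After f13a1b, described above, factor V, f5, was at 9.98, 6.87 and 11.2 CPM in the IP, against 2.03, 2.71 and 3.41 CPM in the input (1.77 ± 0.25, adjusted p = 0.00134), and protein S, pros1, rose by 1.11 ± 0.17. Of 25 serpins and cystatins 5 rose and 7 fell, with serpinb1l3 at 1.15 ± 0.20 and the plasma protease inhibitor genes serpina1l (-1.25 ± 0.23) and serpina1 (-1.21 ± 0.18) lower. Of 40 complement genes 8 fell and 2 rose, with the scavenger collectin gene COLEC12 at 1.5 ± 0.19 and complement factor H, cfh, at -1.69 ± 0.22. The medians of the coagulation and complement lists were -0.28 and -0.39 here, and -1.30 and -1.33 in the RiboTag pull-down.

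With each sample pair left out in turn, fallers numbered 5 to 27 among the collagens, 3 to 15 among the Wnts and antagonists, 1 to 12 among the TGF-beta class ligands, 2 to 9 among the guidance genes, 5 to 13 among the collagen enzymes and 3 to 15 among the complement genes. Risers numbered 11 to 16 among the metalloproteinases, 13 to 15 among the matricellular genes, 2 to 6 among the chemokines, 5 to 8 among the coagulation genes and 4 among the collagens. They numbered 0 to 7 among the collagen enzymes and 1 to 6 among the serpins and cystatins. Every minimum that moved came without pair 3. Upper-quartile scaling gave 9 fallers among the metalloproteinases and 8 among the coagulation genes, and 3 risers among the collagen enzymes. Without the block the TGF-beta class ligands had 6 fallers.

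**Figure D4:**
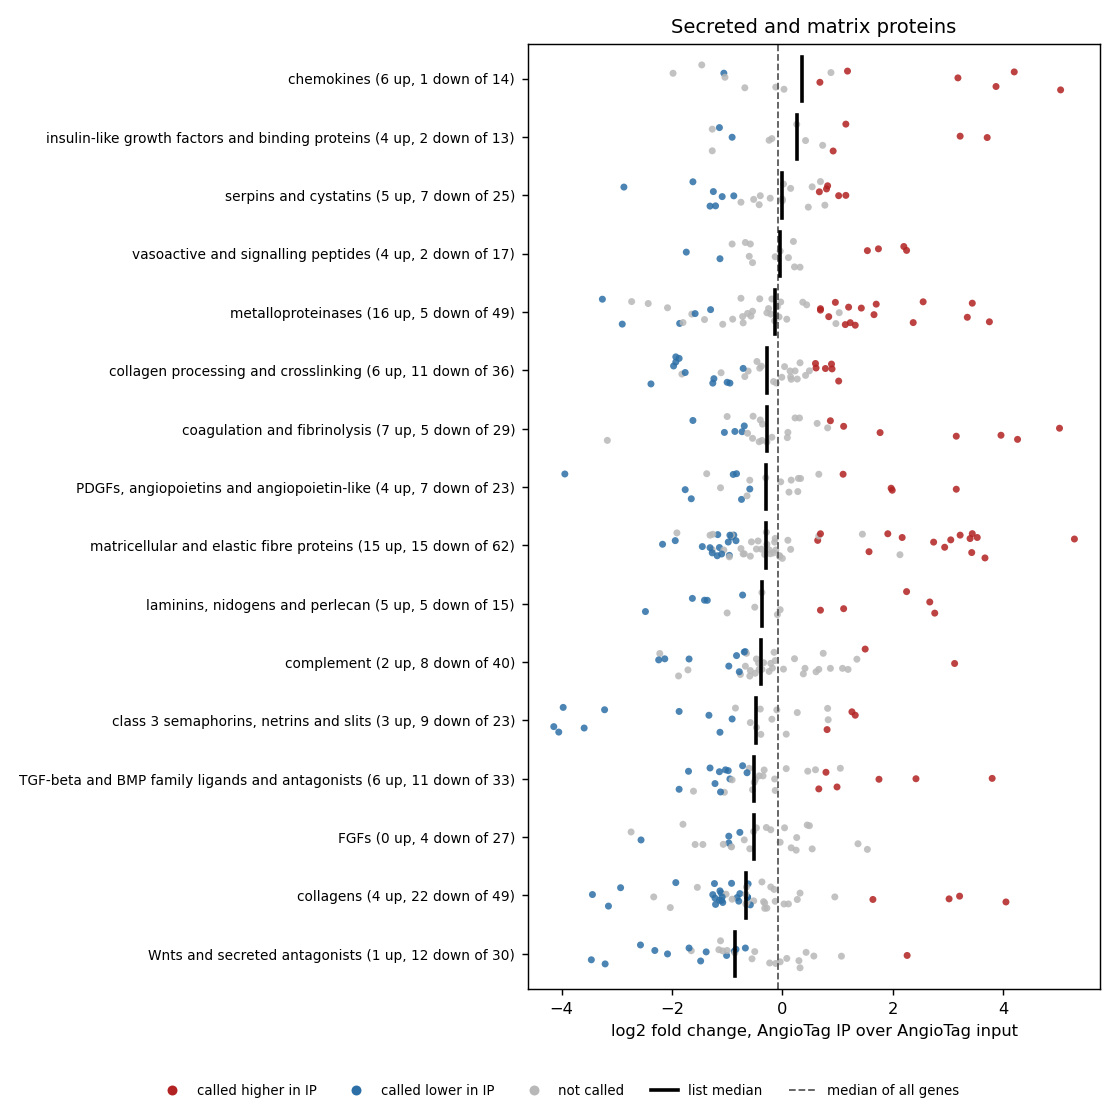
Log2 fold change of AngioTag IP over AngioTag input for every tested member of 16 lists of secreted and matrix genes, 1 point per gene, drawn as in the plot of transcription factor families. Collagens and Wnts have medians to the left of the dashed line with a few genes far to the right, and the matricellular and metalloproteinase lists have long tails on the right.

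Among metabolic genes there were 74 risers and 115 fallers of 651 (median -0.14), with a share of risers below the 13.1% over all genes and a share of fallers above the 14.2%. Glycolysis had 14 fallers and 4 risers of 38, and the fallers included isoforms of muscle and nerve. ALDOA (ENSDARG00000034470), the aldolase of muscle, was at 273, 210 and 208 CPM in the IP, against 690, 681 and 688 CPM in the input (-1.59 ± 0.18, adjusted p = 0.00034). GAPDHS, a glyceraldehyde phosphate dehydrogenase gene, was at 245, 186 and 349 CPM in the IP, against 98.6, 94.6 and 98 CPM in the input (1.37 ± 0.21, adjusted p = 0.00176). Groups overlapped for neither gene. Of 39 genes of the tricarboxylic acid cycle and pyruvate entry 8 fell and 1 rose. The riser was PDK4, the kinase that closes pyruvate entry, at 22.4, 21.1 and 21.6 CPM in the IP, against 6.71, 8.99 and 8.33 CPM in the input (1.44 ± 0.19, adjusted p = 0.000924).

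Enzymes of amino acid, one-carbon and purine metabolism fell more often than they rose. Of 38 genes of glutamine, serine and one-carbon metabolism 13 fell and 2 rose, and of 18 purine synthesis genes 7 fell and none rose. The purine enzyme gene PFAS was at 3.6, 3.89 and 2.54 CPM in the IP, against 21, 17.3 and 26.8 CPM in the input (-2.69 ± 0.27, adjusted p = 0.000179), and GART fell as well (-1.23 ± 0.20). In sorted cells PFAS was at -0.18 ± 0.62 with no call, and 1 of the 7 purine fallers was lower there. The aminotransferase gene GOT1 (-1.94 ± 0.22) and the mitochondrial serine hydroxymethyltransferase gene SHMT2 (-2.31 ± 0.30) fell as well. Of 17 pyrimidine and ribonucleotide reductase genes 1 rose and 2 fell (median 0.09), with thymidine kinase, TK1, at -1.95 ± 0.28. The risers of the glutamine, serine and one-carbon list included glutamine synthetase, GLUL (ENSDARG00000099776), at 308, 260 and 405 CPM in the IP, against 91.1, 84.1 and 87 CPM in the input (1.87 ± 0.19, adjusted p = 0.000219).

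Sphingolipid genes rose in 9 of 47 cases and fell in 3, and 8 of the 9 were higher in sorted cells. They included genes of sphingolipid synthesis and of sphingosine 1-phosphate export and removal. The exporter gene spns2 was at 29.1, 39 and 51.3 CPM in the IP, against 10.8, 11.1 and 11.5 CPM in the input (1.81 ± 0.20, adjusted p = 0.000324). The first enzyme of sphingolipid synthesis, SPTLC2 (ENSDARG00000018976), was at 45.6, 31 and 40.5 CPM in the IP, against 11.8, 9.75 and 9.82 CPM in the input (1.89 ± 0.18, adjusted p = 0.000134). The phosphatase gene sgpp1a (1.61 ± 0.19), the lyase gene SGPL1 (1.12 ± 0.18) and the sphingomyelinase gene smpd2b (1.5 ± 0.23) rose, and a ceramide synthase gene, CERS2 (ENSDARG00000058992), fell (-1.63 ± 0.28). All 3 IP libraries of spns2 and SPTLC2 were above all 3 inputs. In other lipid lists, of 49 genes of fatty acid uptake and oxidation 3 rose and 8 fell (6.12% and 16.3%). Of 31 sterol genes 1 rose and 4 fell (3.23% and 12.9%). Of 22 fatty acid synthesis genes 3 rose and 3 fell (13.6% each way), close to the shares over all genes. The lipid droplet coat gene plin3 rose by 1.08 ± 0.19, and the elongation genes TECR (ENSDARG00000025904, -1.17 ± 0.17) and HACD1 (-1.13 ± 0.18) fell.

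Transporters held single genes with large rises. The nucleoside transporter gene SLC29A1 (ENSDARG00000054447) was at 150, 40 and 61.7 CPM in the IP, against 5.32, 4.31 and 5.01 CPM in the input (3.88 ± 0.31, adjusted p = 4.84e-05). The other gene named SLC29A1 (ENSDARG00000101289) fell (-0.67 ± 0.17). Its mean was 68.3 CPM in the IP, against 108 CPM in the input. The genes named SLC16A1, a lactate transporter, went opposite ways: ENSDARG00000016963 was at 5.21, 6.35 and 13.3 CPM in the IP, against 0.836, 1.83 and 1.56 CPM in the input (2.50 ± 0.31, adjusted p = 0.000635), and ENSDARG00000068572 was at 0.859, 1.36 and 1.31 CPM, against 7.47, 2.89 and 5.38 CPM in the input (-2.02 ± 0.40, adjusted p = 0.00628). Groups did not overlap for either copy. SLC16A10, a carrier of aromatic amino acids, rose by 1.60 ± 0.18, and the glucose transporter of liver, SLC2A2, fell in both pull-downs (-1.37 ± 0.23 here and -2.03 ± 0.26 in RiboTag). The peptide transporter gene ABCB9 (3.08 ± 0.27) and the xenobiotic exporter gene abcg2a (3.00 ± 0.34) rose among ATP-binding cassette genes, which gave 6 risers and 6 fallers of 42. Of 58 amino acid transporters 5 rose and 10 fell, and of 39 carriers of glucose, lactate and nucleosides 4 rose and 7 fell.

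Genes of extracellular nucleotide, nitric oxide and redox metabolism were mixed. ENTPD1, the surface enzyme CD39 that removes extracellular ATP, was at 58.3, 43.9 and 80.4 CPM in the IP, against 20.2, 20 and 22.2 CPM in the input (1.51 ± 0.20, adjusted p = 0.000805). DDAH2, which breaks down an inhibitor of nitric oxide synthases, rose by 1.23 ± 0.19, while NOS2 (ENSDARG00000031976, -1.68 ± 0.33) and the pteridine gene gch2 of pigment cells (-2.44 ± 0.28) fell. Their list had 4 risers and 9 fallers of 35. Redox genes gave 6 risers and 5 fallers of 34, led by NCF1, a phagocyte oxidase subunit (3.75 ± 0.30), with the peroxiredoxin gene prdx1 (ENSDARG00000058734) at 1.25 ± 0.21. In glycosaminoglycan synthesis CSGALNACT1, which starts chondroitin chains, was at 14.7, 14 and 21.6 CPM in the IP, against 3.2, 2.66 and 2.45 CPM in the input (2.57 ± 0.24, adjusted p = 0.000133), and the heparan sulfotransferase gene NDST1 (ENSDARG00000103606) fell (-2.62 ± 0.34).

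Genes of endoplasmic reticulum translocation and folding rose in 17 of 51 cases and fell in 5 (median 0.37). The rises were small outside pdia2: the calreticulin gene calr3a was at 611, 411 and 649 CPM in the IP, against 211, 256 and 263 CPM in the input (1.17 ± 0.21, adjusted p = 0.00354), and the other copy, calr3b, at 5.47, 4.06 and 3.49 CPM, against 28.8, 12.1 and 23.5 CPM in the input (-2.24 ± 0.25, adjusted p = 0.000396). These copies went opposite ways without overlap. In sorted cells 1 of the 17 risers was higher, and in the RiboTag pull-down the list's median was 0.22.

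Across the 3 sample pairs left out, risers numbered 2 to 26 among the endoplasmic reticulum genes, 5 to 11 among the sphingolipid genes, 2 to 9 among the redox genes and 3 to 6 among the cassette transporters. They numbered 0 to 7 among the amino acid transporters and 0 to 3 among the fatty acid synthesis genes. Fallers numbered 9 to 14 in glycolysis, 0 to 9 in the tricarboxylic acid cycle, 5 to 16 in glutamine and one-carbon metabolism, 3 to 7 in purine synthesis, 4 to 11 in the nitric oxide list and 2 to 14 among the amino acid transporters. Without pair 3 the endoplasmic reticulum translocation and folding list had 2 risers with a median of 0.35, and with no block it had 3 without input 1 and 5 without input 2 (medians of 0.32 and 0.41). Upper-quartile scaling gave 17 fallers in the tricarboxylic acid cycle, 20 in glutamine and one-carbon metabolism, 11 in purine synthesis and 6 in sphingolipid metabolism.

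**Figure D5:**
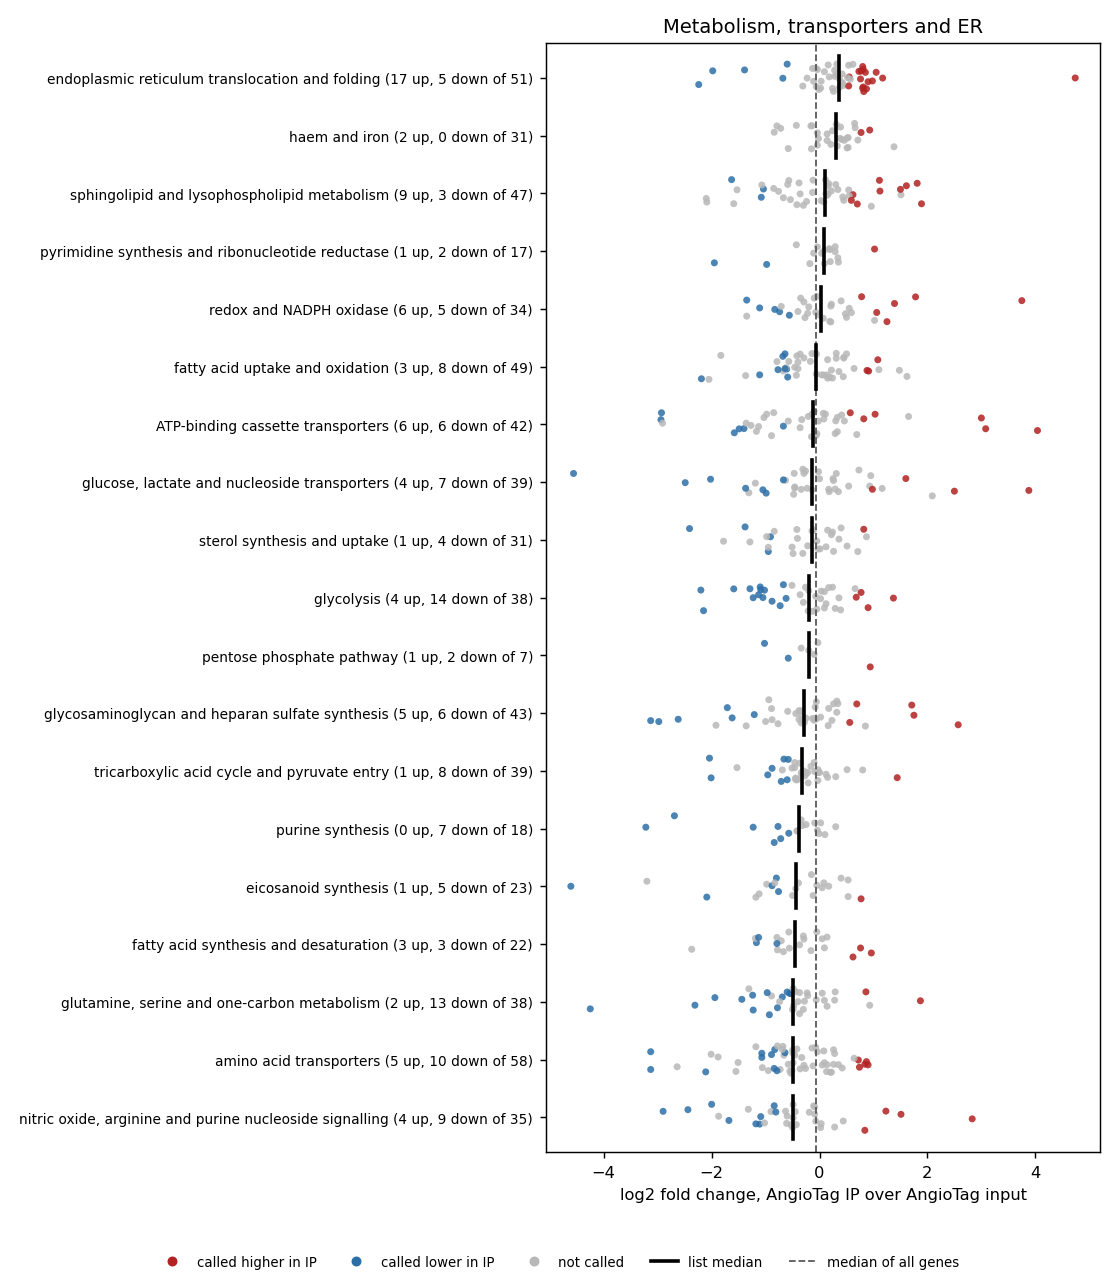
Log2 fold change of AngioTag IP over AngioTag input for every tested member of 19 lists of metabolism, transporters and endoplasmic reticulum, 1 point per gene, drawn as in the plot of transcription factor families. List medians lie between -0.50 and 0.37, close to the dashed line. Single genes reach beyond a log2 fold change of 2, among them transporters, pdia2, NCF1 and CSGALNACT1.

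The difference between the endothelial and the whole-embryo pull-down was tested directly: the AngioTag fold change minus the RiboTag fold change, over the 12 IP and input libraries of both lines. In this test 1495 of 19046 genes had a higher AngioTag value (7.85%) and 1484 a lower one (7.79%). By list, the AngioTag value was higher for 7 and lower for 0 of 24 ETS genes, 6 and 1 of 17 in the GATA list, 10 and 1 of 49 peptide and amine GPCRs, 10 and 4 of 49 metalloproteinases, and 7 and 0 of 47 sphingolipid genes. It was higher for 2 and lower for 51 of 135 patterning homeobox genes, 2 and 18 of 68 basic helix-loop-helix genes, 5 and 12 of 23 Sox genes, 4 and 27 of 49 collagens, and 0 and 11 of 38 glycolysis genes. In the Hox list, with fallers in both pull-downs, 2 genes differed upward and 4 downward, and in the endoplasmic reticulum list 3 and 4. Without AngioTag pair 3 the numbers over all genes were 751 and 489, and without the block 850 and 672.

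The largest differences upward were in F2RL2 (8.71 ± 0.79, adjusted p = 2.9e-06, with too few RiboTag counts to be tested in that line alone, so that its size rests on values near 0 there), pdia2 (7.65 ± 0.64), the Wnt antagonist gene nkd3 (ENSDARG00000096278, 6.92 ± 0.83), gfi1aa (6.34 ± 0.84), spi2 (6.24 ± 0.74), lyz (6.17 ± 0.44), actc1c (6.10 ± 0.46), GJA5 (5.62 ± 0.44), ccl19b (5.28 ± 0.76) and hbl2 (5.18 ± 0.46). For pdia2, gfi1aa and lyz the difference exceeded the AngioTag rise given above, so part of its size comes from the RiboTag libraries. The AngioTag inputs of ccl19b and actc1c were at very low levels, as given above. The largest downward were in col8a1a (-3.61 ± 0.35, adjusted p = 5.16e-06), col5a3b (-2.98 ± 0.30), abi3b (-2.98 ± 0.34), lmod3 (-2.82 ± 0.50), KLHL41 (ENSDARG00000068888, -2.76 ± 0.38), CDH7 (-2.72 ± 0.48), CELSR2 (-2.69 ± 0.39), EOMES (ENSDARG00000006640, -2.69 ± 0.28) and acsl2 (-2.66 ± 0.69). The collagen gene col5a3b was at 61, 48.3 and 35.1 CPM in the AngioTag IP, against 95.4, 89.6 and 121 CPM in its input (-1.1 ± 0.24), and rose by 1.86 ± 0.18 in the RiboTag pull-down. The mesendoderm factor EOMES was at 9.12, 5.42 and 4.01 CPM in the AngioTag IP, against 16.5, 11.7 and 12.2 CPM in its input (-1.19 ± 0.22), and rose by 1.48 ± 0.18 in the RiboTag pull-down. Both genes were thus called in opposite directions in the pull-downs of the 2 lines. The AngioTag call of col5a3b was lost without pair 3 (adjusted p = 0.139), and that of EOMES was lost in 5 of the 6 fits that left out 1 library without a block.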

How the data were processed

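The authors deposited a single table that gives, for every Ensembl gene, the raw count in each of 18 libraries. Per the submitters' processing notes STAR 2.4.2a, RSEM 1.2.22, DESeq2 and the zebrafish build GRCz10 were used. Their roles, the gene annotation and whether strand was used are not given in the sources used here, so reads of overlapping and near-identical genes may be shared. Per the labels' protocols 500 ng of RNA went through poly(A) selection or rRNA removal, without naming which library had which, before a stranded library kit, so the part of that step in the mitochondrial share was not tested. Per the labels, each group has 3 numbered samples of pooled embryos. Nothing says that these came from separate clutches, so p-values measure only the spread between these samples.

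The deposited counts were analysed with edgeR 4.0.16 in R 4.3.3 (filterByExpr with a minimum count of 10, TMM scaling, quasi-likelihood F test, group plus sample number as a block, Benjamini-Hochberg adjustment over all genes tested, threshold 0.05). SE was taken from the fold change and the F statistic, as |log2 fold change| over the root of F. The step was also run on simulated counts with 200 changed genes. These had the same spread for every gene and no difference between sample pairs. The run therefore gives no error rate for the real libraries and is no support for the calls. The sample number was used as a block because the comparison was defined with it. Deviations of same-numbered IP and input samples correlated across 17913 genes at 0.326, 0.156 and 0.206. IP 3 with input 2 gave 0.186 and IP 2 with input 3 gave 0.177. These values set sample 1 apart but do not show that samples 2 and 3 are paired by number. The contrast between lines used 12 libraries with 6 blocks. Interval widths cover the spread between samples, and depth differs between libraries as given above.

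Symbols came from a reference table of gene names, and 89.5% of the genes had one. Capital letters are as in that table. A RefSeq gene table of another build was used for names only, to match 33 entries of the gene lists by alias. A symbol shared by several genes is printed with its Ensembl ID. The members and the 76 gene lists were chosen with earlier results of these data known. Genes were named by rule: the 20 largest rises and 12 largest falls with average log2 CPM of at least 2 and no overlap of groups, up to 5 risers and 3 fallers per list with average log2 CPM of at least 1, up to 2 members each way of other cell type lists, the cell type markers, and the 10 largest differences between lines each way. Where the rule named more genes than are described, those whose call held under every alternative were preferred after their values were seen. A few genes that this rule names are not reported here. RLE and upper-quartile scaling, DESeq2 1.42.0, other filters, no block, each pair or library left out, and a fit of all 18 libraries were tried.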

Additional observations from a re-analysis of the deposited data

Results flagged for a closer look

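The difference between the AngioTag and the RiboTag enrichment was tested over the 12 IP and input libraries of both lines with edgeR's quasi-likelihood test, and 19 of the genes named are given for its size. The 10 largest values upward on the log2 scale were 8.71 for F2RL2, 7.65 for pdia2, 6.92 for nkd3, 6.34 for gfi1aa, 6.24 for spi2, 6.17 for lyz, 6.10 for actc1c, 5.62 for GJA5, 5.28 for ccl19b and 5.18 for hbl2. The largest downward, 9 in number, were -3.61 for col8a1a, -2.98 for col5a3b, -2.98 for abi3b, -2.82 for lmod3, -2.76 for KLHL41, -2.72 for CDH7, -2.69 for CELSR2, -2.69 for EOMES and -2.66 for acsl2.

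A further 10 named genes are given because they were called in opposite directions in the pull-downs of the 2 lines. The AngioTag value was the higher one for ramp2 (4.54), CSGALNACT1 (3.85), COL4A2 (3.22), CEBPA (2.04) and igf2b (1.67). It was the lower one for adam10b (-2.60), ednrab (-2.47), SP9 (-2.27), GART (-2.05) and MDK (-1.66). The thrombin receptor family gene F2RL2 had too few counts to be tested in the RiboTag comparison alone. The differences of pdia2, gfi1aa and lyz exceeded their AngioTag rises, so part of their size comes from the RiboTag libraries. With 3 samples a group no test for single deviating samples was made.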

How the results depend on the processing

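Under the alternatives tried, none of the named genes reversed its direction. The rule chose these genes largely for their calls in the main fit, and the alternatives draw on the same libraries. The absence of reversals is therefore no separate support. Of 7428 values of named genes 6463 kept their call and 965 lost it, and of 427 named genes in the AngioTag comparison 232 kept their call throughout. With the block kept, 148 genes lost the call without sample pair 3, and with no block 145, 124 and 157 did without input 1, 2 and 3, and 24, 32 and 149 without IP 1, 2 and 3.

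Without the replicate block, which ties same-numbered samples, the AngioTag comparison had 2170 higher and 2130 lower genes, against 2352 and 2552 with it. Its removal moved the difference between lines to 850 higher and 672 lower. RLE scaling gave 2408 and 2595, DESeq2 2674 and 2840, no low-count filter 2699 and 3039, and the fit of all 18 libraries 1879 and 2104 genes. Upper-quartile scaling moved the fallers among receptors to 78. The cause of these changes was not tested.

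With single libraries or pairs left out, the genes higher in the AngioTag IP numbered 955 to 3099 and those lower 695 to 3461. The difference between lines ranged from 751 to 1507 higher and from 489 to 1637 lower. Transcription factors ranged from 49 to 104 higher and 48 to 190 lower, receptors from 44 to 97 and 19 to 92, secreted genes from 54 to 94 and 40 to 167, and metabolic genes from 22 to 104 and 33 to 139. Where this left 1 sample number fewer, 2 pairs remained and the spread rests on few samples. Counts of single lists stayed within 1.5 times in 1856 of 2584 alternatives. In IP 1, 1274 tested genes had no count, and the cause was not tested.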

Other observations

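Zebrafish carry many duplicated genes, and 1020 symbols in the table stood for exactly 2 tested genes. Both copies were higher in the AngioTag IP for 37 symbols and both lower for 56, while 33 symbols had 1 copy higher and 1 lower. Over all genes tested 13.1% were higher and 14.2% lower. Whether the number of opposite pairs differs from what these shares alone would give was not tested. In 392 only 1 copy was called and in 502 neither was. Of the 33 opposite pairs, 3 kept both calls under every alternative tried: the lactate transporter SLC16A1 (2.50 and -2.02 on the log2 scale), the basement membrane linker NID1 (2.25 and -1.36) and AP2M1, a subunit of the clathrin adaptor (1.49 and -1.35). In 24 of the 33 the falling copy had the lower normalised count in the input, and the part of level was not tested. Levels are not divided by gene length, so this count does not show which copy was less abundant. The difference between copies was itself not tested. Some symbols in this table may join genes that are not true duplicates, and reads may be shared where copies are near-identical.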
